A study of Mus musculus with 2 samples.

Results

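The 10 genes described here encode Toll-like receptors of microglia and the proteins that they work with. They were chosen by name, as the rows of the deposited count table for *Tlr2*, *Tlr3*, *Tlr4*, *Tlr7*, *Tlr9*, *Tlr13*, *Cd14*, *Ly86*, *Myd88* and *Unc93b1*, and all 10 were found among the 13549 genes of the table. Microglia, the macrophages that reside in nervous tissue, were sorted from the retinas of mice at postnatal day 5 for bulk RNA sequencing. All animals had the genotype CD11c-Cre-gfp;Rosa-TDTom, in which the CD11c promoter drives a Cre recombinase with GFP, and Cre permanently turns on the red reporter TdTom. Cd11c-active cells (GFP+TdTom+, 4041 cells) carried both colours, which is read here as promoter use at or shortly before sorting. Cd11c-lineage cells (GFP-TdTom+, 5441 cells) carried the red label of earlier use without GFP. Per the labels the gates used the reporters, and no other gate is named. Both populations were sorted from one pool of 8 retinas (4 female and 4 male) and each gave 1 library, so no difference below has a replicate check and no p-value is given.

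Toll-like receptors recognise molecules of microbes and of damaged or dying cells. *Tlr2* and *Tlr4* encode receptors of the cell surface, while the products of *Tlr3*, *Tlr7*, *Tlr9* and *Tlr13* bind nucleic acids inside endosomes, where engulfed material arrives. *Unc93b1* encodes the membrane protein that escorts the endosomal receptors from the endoplasmic reticulum, and *Cd14* and *Ly86* encode co-receptors. Ligand binding recruits adaptors, of which the *Myd88* product serves all of these receptors except that of *Tlr3*, and the signal passes through kinases to NF-kB and interferon regulatory factors. The comparison of the libraries asks whether microglia with GFP from the CD11c promoter differ in this system from those with the red label alone.

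The Cd11c-active library held 12943998 reads and the Cd11c-lineage library 13402625. Levels are given as CPM, reads of a gene relative to the TMM-scaled library size, and ratios as Cd11c-active over Cd11c-lineage on the log2 scale. The libraries differed by more than counting error: the robust variance of the log2 ratio was 72.3 to 234 times the counting variance in 4 ranges of reads from 200 reads upward. Each ratio is given with its exact Clopper-Pearson 95% counting interval and, where named, with an interval widened by that factor. All 8 microglia markers fixed for this comparison were present, with summed levels of 19998 CPM in Cd11c-active and 19115 CPM in Cd11c-lineage. Markers of vessels and of border macrophages differed between the libraries, and their values are given beside the results.

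None of the 10 genes was 2-fold or more higher or lower in Cd11c-active. The median of their log2 ratios was 0.08, against 0.01 over the 13037 genes with a combined count of 20 reads or more, and 5 lay above and 5 below 0. The lowest was *Tlr9* at -0.90 and the highest *Myd88* at 0.67. All 10 genes had over 200 reads. Of all 8951 genes with at least 200 reads, 26.3% were 2-fold or more apart in either direction, 14.1% higher and 12.2% lower in Cd11c-active. Of the 4619 genes with at least 1000 reads, a minimum that 9 of the 10 genes reached, 9.57% were. In bulk RNA, fewer cells that express a gene and less of its RNA per cell cannot be told apart.

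**Figure D1:**
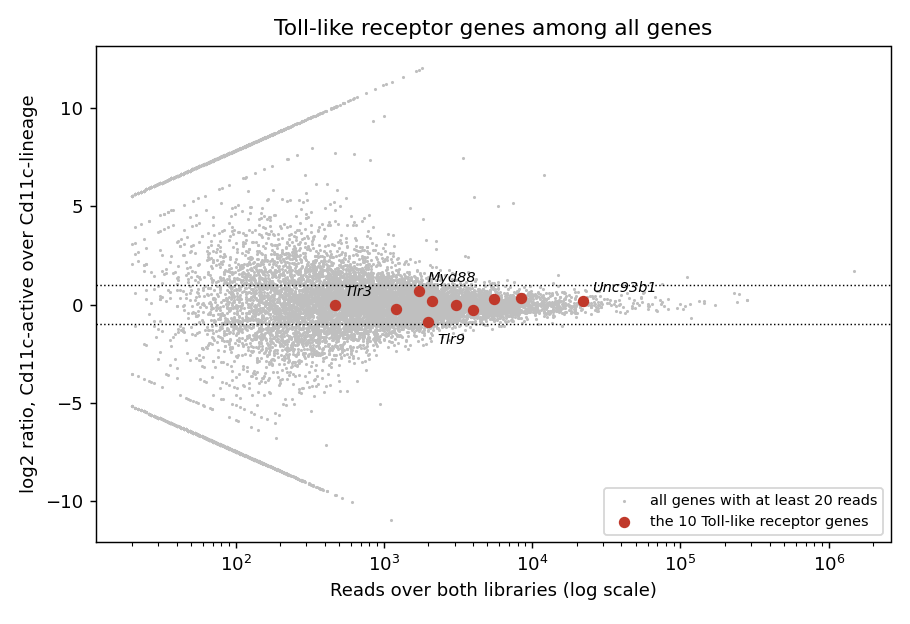
The log2 ratio of Cd11c-active over Cd11c-lineage (vertical axis) is plotted against the reads over both libraries (horizontal axis, log scale) for all genes with at least 20 reads (grey) and for the 10 Toll-like receptor genes (red), with dotted lines at 2-fold. All 10 red points lie between the dotted lines, from *Tlr9* at -0.90 to *Myd88* at 0.67.

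All 4 endosomal receptors had log2 ratios below 0, as had 49.8% of all 13037 tested genes. The ratios of *Tlr9* and *Tlr7* kept their sign under every setting tried. Those of *Tlr13* and *Tlr3* were above 0 (0.08 and 0.11) once the trend in transcript length and GC content was removed. *Tlr9*, whose product senses DNA with unmethylated CpG, gave 636 reads (51.5 CPM) in the Cd11c-active library and 1349 (96.0 CPM) in the Cd11c-lineage library. The log2 ratio was -0.90 (counting interval -1.04 to -0.76), a level 1.86-fold higher in Cd11c-lineage. This was the widest gap among the 10 genes. In genes with 800 to 3199 reads the middle 90% of log2 ratios ran from -1.11 to 1.27 and the middle 50% from -0.46 to 0.45, so *Tlr9* lay inside the first range and below the second. Its widened interval, -2.39 to 0.29, included 0. With scaling to library totals its ratio was -1.03, and with the trend in transcript length and GC content removed it was -1.09, so that 1 of the 10 genes was past 2-fold under either choice.

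*Tlr7* is the receptor for single-stranded RNA. It gave 1679 reads (136 CPM) in the Cd11c-active library and 2317 (165 CPM) in the Cd11c-lineage library, and a log2 ratio of -0.28 (-0.37 to -0.19). *Tlr13*, the receptor for bacterial ribosomal RNA, gave 1431 reads (116 CPM) and 1644 reads (117 CPM), and a ratio of -0.01 (-0.12 to 0.09). *Tlr3*, the receptor for double-stranded RNA, was the least abundant, with 218 and 254 reads, or 17.7 and 18.1 CPM, and a ratio of -0.03 (-0.30 to 0.23). The counting intervals of *Tlr13* and *Tlr3* included 0, and that of *Tlr7* did not. The widened interval of *Tlr7* was -1.36 to 0.73. Together the 4 endosomal receptors had 3964 and 5564 reads, a log2 ratio of -0.30 (-0.36 to -0.24). Without *Tlr9* the other 3 gave 3328 and 4215 reads, a ratio of -0.15 (-0.22 to -0.09). Both of these are counting intervals, and the widened intervals of all 4 single genes included 0. The sums have no value with the trend in transcript length and GC content removed, where *Tlr7* by itself stood at -0.17.

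*Unc93b1* was the most abundant of the 10 genes. It gave 11027 reads (893 CPM) in the Cd11c-active library and 11048 (786 CPM) in the Cd11c-lineage library, and a log2 ratio of 0.18 (0.15 to 0.22, and when widened -0.43 to 0.80), which was -0.14 with the trend in transcript length and GC content removed. The escort and the receptors that it carries can be set against each other within a library, which does not depend on the scaling between libraries. For each 100 *Unc93b1* reads there were 5.77 *Tlr9* reads in the Cd11c-active library and 12.2 in the other, a log2 difference of -1.08 (exact conditional 95% interval -1.23 to -0.94, widened -2.71 to 0.28). *Tlr7* had 15.2 and 20.97 reads per 100 *Unc93b1* reads, a difference of -0.46 (-0.56 to -0.36). *Tlr13* had 12.98 and 14.9, and *Tlr3* had 1.98 and 2.30. All 4 receptors had fewer reads per *Unc93b1* read in Cd11c-active as counted. That direction follows from their ratios below 0 and the *Unc93b1* ratio of 0.18, so it is no separate result. Any gene with a ratio under 0.18 shares it, and the median of all tested genes was 0.01. The shared direction of the 4 receptors was lost with the trend in transcript length and GC content removed from both genes. This correction of the read ratios was added after their values were seen. The differences were then -0.96 for *Tlr9*, -0.03 for *Tlr7*, 0.22 for *Tlr13* and 0.25 for *Tlr3*. Without that correction, the counting interval for *Tlr3* (-0.49 to 0.05) and the widened intervals for all 4 included 0.

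**Figure D2:**
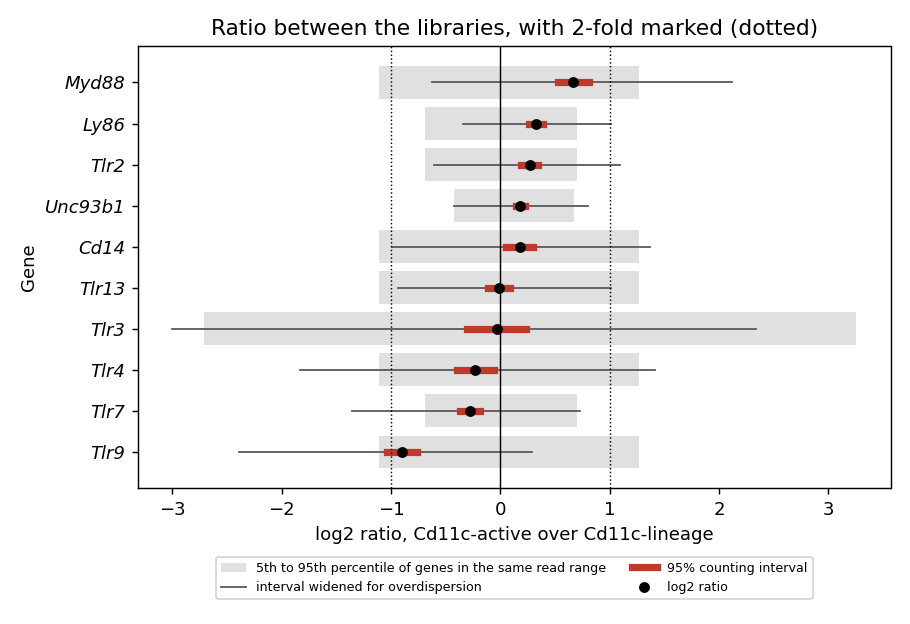
Points show the log2 ratio of Cd11c-active over Cd11c-lineage for each gene (vertical axis), red bars the 95% counting interval, thin lines the interval widened for overdispersion, and grey bands the 5th to 95th percentile of all genes in the same range of reads. All 10 points lie inside their grey band, and all 10 thin lines cross 0.

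The promoters of *Tlr9* and *Tlr13* are shown because these receptors share the escort and the compartment and lie at -0.90 and -0.01. RefSeq's table for GRCm38.p6 matched 6 of the 10 genes: *Tlr2*, *Tlr3*, *Tlr9*, *Tlr13*, *Ly86* and *Myd88*. Each window runs from 250 bases before the annotated start to 50 bases from it, with the start as position 1. *Tlr9* lies on the plus strand at chr9:106222348-106222647 and *Tlr13* on the plus strand at chrX:106143025-106143324. Capitals mark GAGGAAG, the purine-rich motif of the ETS factor PU.1, on either strand, and TGANTCA, the AP-1 motif.
Tlr9: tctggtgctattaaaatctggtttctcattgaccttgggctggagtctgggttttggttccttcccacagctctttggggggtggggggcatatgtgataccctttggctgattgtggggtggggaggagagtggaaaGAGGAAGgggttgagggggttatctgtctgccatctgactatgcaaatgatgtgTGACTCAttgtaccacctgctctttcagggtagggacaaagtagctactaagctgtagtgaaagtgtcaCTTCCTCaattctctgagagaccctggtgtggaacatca
Tlr13: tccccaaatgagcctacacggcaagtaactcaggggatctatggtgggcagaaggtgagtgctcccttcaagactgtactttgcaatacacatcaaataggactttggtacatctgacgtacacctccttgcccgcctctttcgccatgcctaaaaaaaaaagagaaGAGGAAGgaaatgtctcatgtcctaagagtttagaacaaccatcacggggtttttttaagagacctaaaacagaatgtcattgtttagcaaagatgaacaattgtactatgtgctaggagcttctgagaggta
*Tlr9* held GAGGAAG at -112 to -106 and its reverse complement at 12 to 18, and the AP-1 letters at -58 to -52. *Tlr13* held GAGGAAG once, at -83 to -77. Of all 32851 promoter windows in the table, 13.6% held GAGGAAG on either strand and 7.81% held TGANTCA. Among the 6 matched genes, 2 held the first and 1 the second. These matches describe letters in the reference and not binding.

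At the cell surface, *Tlr2* had the higher level in Cd11c-active and *Tlr4* the lower one. *Tlr2*, which recognises lipoproteins, gave 2832 reads (229 CPM) in the Cd11c-active library and 2678 (191 CPM) in the Cd11c-lineage library, with a log2 ratio of 0.27 (0.19 to 0.34, and when widened -0.61 to 1.10). *Tlr4*, the receptor for lipopolysaccharide, gave 519 reads (42.0 CPM) and 692 reads (49.2 CPM), with a ratio of -0.23 (-0.40 to -0.06, widened -1.84 to 1.42). Neither counting interval included 0 and both widened intervals did. *Cd14*, which hands ligands to these receptors, gave 1058 reads (85.7 CPM) and 1065 reads (75.8 CPM), a ratio of 0.18 (0.05 to 0.30, widened -0.99 to 1.36), which was -0.10 with the same trend removed. There were 204 *Cd14* reads per 100 *Tlr4* reads in the Cd11c-active library and 154 in the other, a log2 difference of 0.41 (exact conditional interval 0.20 to 0.61, widened -1.66 to 2.41). With the trend removed from both genes the difference was -0.0012.

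Partners of *Tlr2* lay on both sides of 0, and the partner of *Tlr4* had too few reads for a direction. *Tlr1* and *Tlr6* encode receptors that pair with the *Tlr2* product, and they are close paralogs whose reads the counting may have split. *Tlr1* had 679 and 442 reads (log2 ratio 0.81, counting interval 0.63 to 0.98, widened -0.88 to 2.54). *Tlr6* had 464 and 620 (-0.23, -0.41 to -0.06, widened -2.03 to 1.49). Both widened intervals included 0. Per 100 *Tlr6* reads there were 146 *Tlr1* reads in the Cd11c-active library and 71.3 in the other, a log2 difference of 1.04 (exact conditional interval 0.79 to 1.29, widened -1.46 to 3.49). *Ly96*, which encodes the protein that completes the lipopolysaccharide receptor, gave 0 reads in the Cd11c-active library and 17 in the Cd11c-lineage library. It was below the minimum of 20 reads, and 90.8% of the 512 genes with 6 to 19 reads had 0 in one of the libraries.

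*Ly86* encodes the secreted partner of the receptor-like protein CD180, which lacks a signalling tail of the Toll-like type. *Ly86* gave 4441 reads (360 CPM) in the Cd11c-active library and 4030 (287 CPM) in the Cd11c-lineage library, with a log2 ratio of 0.33 (0.26 to 0.39, and when widened -0.34 to 1.02). *Cd180* gave 4389 reads (355 CPM) and 2726 reads (194 CPM), with a ratio of 0.87 (0.80 to 0.94). Both genes of the pair were thus higher in Cd11c-active on their counting intervals. The widened interval of *Cd180*, 0.11 to 1.65, did not include 0, as in 4.54% of all genes with 3200 to 12799 reads. That held for 2 of the 42 other pathway genes with at least 1000 reads (*Cd180* and *Ctsb*), near the 4.52% of all genes of that depth. It held for 0 of the 10 genes, against 3.89% of all genes with at least 200 reads. For each 100 *Ly86* reads there were 98.8 *Cd180* reads in the Cd11c-active library and 67.6 in the other, a log2 difference of 0.55 (exact conditional interval 0.45 to 0.64, widened -0.51 to 1.58). Over the scaling choices and other alternatives *Cd180* lay between 0.74 and 0.87, under 2-fold in each.

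*Myd88* had the highest ratio of the 10 genes. It gave 999 reads (80.9 CPM) in the Cd11c-active library and 715 (50.9 CPM) in the Cd11c-lineage library, a 1.59-fold higher level in Cd11c-active. The log2 ratio was 0.67 (counting interval 0.53 to 0.81), above the middle 50% of genes with 800 to 3199 reads and inside the middle 90%. The widened interval, -0.62 to 2.12, included 0. With the trend in transcript length and GC content removed the ratio of *Myd88* was 0.47, below its counting interval. In the mouse annotation (GENCODE for GRCm38) exons of *Myd88* overlap those of *Acaa1a* on the opposite strand, and exons of *Tlr3* overlap an opposite-strand gene. Without knowledge of the strand setting in counting, reads of such partners cannot be told apart. No exon of the other 8 genes overlapped another gene.

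The promoter of *Myd88* is shown for comparison with those of the endosomal receptors, as the gene at the other end of the range. It lies on the minus strand at chr9:119339969-119340268 of GRCm38.p6 and is printed in the direction of transcription. Capitals mark the interferon-stimulated response element, searched as GAAA, 2 bases of any kind and GAAA.
Myd88: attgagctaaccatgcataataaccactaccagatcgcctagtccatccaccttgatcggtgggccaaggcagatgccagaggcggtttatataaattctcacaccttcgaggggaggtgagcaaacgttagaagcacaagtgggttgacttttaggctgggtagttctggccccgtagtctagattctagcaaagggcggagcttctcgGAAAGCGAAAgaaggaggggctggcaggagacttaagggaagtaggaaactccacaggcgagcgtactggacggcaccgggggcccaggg
The match lay at -40 to -31. Of all windows 3.44% held these letters on either strand, and of the 6 matched genes *Myd88* alone did. *Tlr3* held the NF-kB motif, searched as GGG, 2 bases of any kind and TTTCC, at -211 to -202, as did 1.63% of all windows. The composite of an ETS and an interferon regulatory factor motif, searched as GGAA, 2 bases of any kind and GAAA, was in 0 of the 6 windows and in 2.72% of all. No motif letters overlapped another of those searched in these windows.

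Levels of different genes were compared per kilobase of the longest annotated transcript. *Unc93b1* led in both libraries with 394 CPM per kb in Cd11c-active and 347 in Cd11c-lineage, followed by *Ly86* (134 and 107), *Tlr2* (76.1 and 63.2), *Cd14* (52.2 and 46.2) and *Tlr7* (34.9 and 42.3). *Tlr4* (10.3 and 12.1) and *Tlr3* (4.01 and 4.10) came last in both. The order changed only among 3 genes. *Myd88*, with 32.9 and 20.7 CPM per kb, was in place 6 in Cd11c-active and 8 in Cd11c-lineage, while *Tlr13* (28.5 and 28.8) and *Tlr9* (14.8 and 27.6) each stood 1 place higher in Cd11c-lineage. With 1 library per group no spread over samples can be given for these levels.

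**Figure D3:**
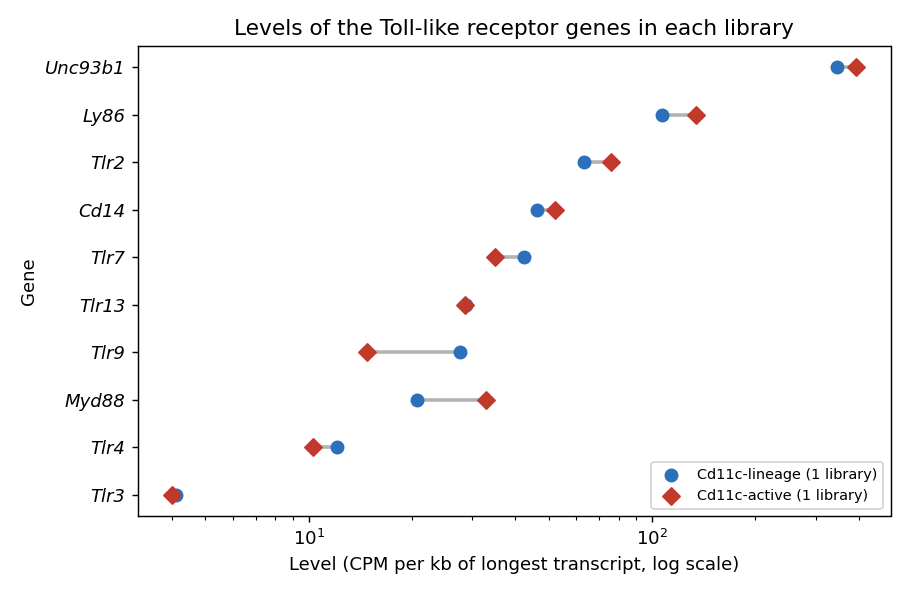
The level of each gene (vertical axis) in CPM per kb of its longest transcript is shown on a log scale for the Cd11c-active library (red diamonds) and the Cd11c-lineage library (blue circles), joined by grey lines. *Tlr9* and *Myd88* have the longest grey lines, with the blue point to the right for *Tlr9* and to the left for *Myd88*.

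Of the 66 other genes in 6 lists of the pathway, 59 had at least 20 reads, with a median log2 ratio of 0.02. Past 2-fold were 4 higher and 4 lower in Cd11c-active, or 8 of 59, against 44.9% of all 13037 tested genes (23.3% higher and 21.6% lower). With at least 1000 reads there were 42 such genes, of which 0 were 2-fold higher and 1, *Irak4*, was 2-fold lower. Among all genes of that depth 5.43% were 2-fold higher and 4.14% lower. *Tlr5*, *Tlr8*, *Tlr11*, *Lbp*, *Ctsk* and *Ube2v1* were not analysed here. Of the other 7 genes past 2-fold, *Cnpy4* had 661 reads and the rest had fewer than 200, and they are named because their number is small.

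Receptors and co-receptors outside the 10 genes had a median log2 ratio of 0.81 over 5 tested genes, 4 of them above 0, as were 50.2% of all tested genes. Besides *Cd180*, *Tlr1* and *Tlr6*, these were *Tlr12* and *Cd36*, and 0 of the 5 were past 2-fold. *Cd36* (90 and 56 reads) is also expressed by endothelial cells, whose 8 markers were all higher in Cd11c-active, and their part in its ratio was not tested. The other adaptors had a median of 0.12. *Pik3ap1*, an adaptor that links the receptors to phosphoinositide 3-kinase, had 3938 and 4822 reads and a ratio of -0.11. *Ticam2* and *Tirap*, which bridge receptors to the main adaptors, had 578 and 545 reads (0.27) and 318 and 371 reads (-0.04). *Ticam1*, named after its value was seen, stood at 0.12. *Sarm1* was past 2-fold with 107 and 17 reads, at a ratio of 2.81, above that of *Myd88*. Per 100 *Tirap* reads there were 314 *Myd88* reads in the Cd11c-active library and 193 in the other, a log2 difference of 0.70 (exact conditional interval 0.44 to 0.97, widened -1.79 to 3.55). With the trend in transcript length and GC content removed from both genes it was 0.44.

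Folding, trafficking and processing genes had a median log2 ratio of 0.02 over 13 tested genes. Endosomal receptors are cut by proteases before they signal. Of these, *Ctsb* had 138995 and 108212 reads and stood at 0.55 (when widened, 0.37 to 0.72), *Ctss* had 49080 and 58201 reads (-0.06), and *Lgmn* had 46585 and 52245 reads (0.02). The widened interval of *Ctsb* did not include 0, nor did that of 10.3% of all genes with 12800 reads or more. *Cnpy4*, a chaperone of surface receptors, was past 2-fold with 36 reads in the Cd11c-active library and 625 in the other (ratio -3.91), and its widened interval lay below 0, with an upper end of -0.79. Of all genes with 200 to 799 reads, 3.18% had a widened interval without 0. *Cnpy3*, its relative that folds receptors together with the product of *Hsp90b1*, had 1072 and 1008 reads (0.28), and *Hsp90b1* had 13006 and 16155 (-0.13). These latter 2 were named after their values were seen. *Tasl*, the adaptor that recruits interferon regulatory factor at the endolysosome, was 2-fold higher with 140 and 49 reads.

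Nucleases of the endolysosome trim the ligands of the endosomal receptors. *Pld3* gave 6182 reads in the Cd11c-active library and 4690 in the Cd11c-lineage library, a log2 ratio of 0.59 (0.53 to 0.64, and when widened -0.003 to 1.20). *Pld4*, its relative, had 7079 and 7522 reads (0.10), and *Dnase2a*, which digests engulfed DNA, had 893 and 1463 reads (-0.53, counting interval -0.65 to -0.40). The widened interval of *Dnase2a* was -1.65 to 0.64. It was the only gene of the 5 tested in this list that lay below 0, and the median was 0.52. *Rnaset2b*, with 22 reads and 1 read, was past 2-fold, but reads of its near-identical copy *Rnaset2a* may have been shared with it.

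Downstream of the receptors, 14 of 21 tested genes lay below 0 and 7 above, with a median of -0.05. Of all 13037 tested genes 49.8% lay below 0, with a median of 0.01. *Irak4*, the first kinase of the MyD88 complex, gave 500 reads (40.5 CPM) in the Cd11c-active library and 1274 (90.7 CPM) in the Cd11c-lineage library. Its log2 ratio was -1.16 (counting interval -1.31 to -1.01), and the widened interval, -2.61 to 0.25, included 0. *Irak4* was 2-fold lower under all 7 other settings. *Irak1* (726 and 1576 reads, ratio -0.93) and *Tbk1* (1128 and 2445, -0.93), named after their values were seen, lay just inside 2-fold. Both passed it with scaling to library totals, and *Irak1* also with the trend in transcript length and GC content removed. The genes with the most reads in this list, *Nfkb1* (2508 and 3273 reads, -0.20), *Tab2* (2510 and 2954, -0.05) and *Irf5* (2112 and 2416, -0.01), lay within 2-fold. The counting interval of *Nfkb1*, -0.27 to -0.12, did not include 0, and its widened interval, -1.05 to 0.64, did.

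Inhibitors of the pathway had a median log2 ratio of 0.03 over 10 genes. *Inpp5d*, a lipid phosphatase, had 11069 and 12102 reads (0.06). *Tnfaip3*, a ubiquitin-editing enzyme, had 6436 and 6636 reads (0.14), and *Nfkbia*, the inhibitor of NF-kB, had 6372 and 5537 (0.39). *Socs1* gave 146 reads in the Cd11c-active library and 0 in the Cd11c-lineage library, at least 55.4-fold higher against the 3 reads per library that a count of 0 allows. *Sigirr* had 0 and 42 reads, at least 12.3-fold lower, and *Irak3* had 12 and 54. These bounds cover counting error only, since 63.0% of the 4086 genes with 20 to 199 reads had 0 in one of the libraries.

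**Figure D4:**
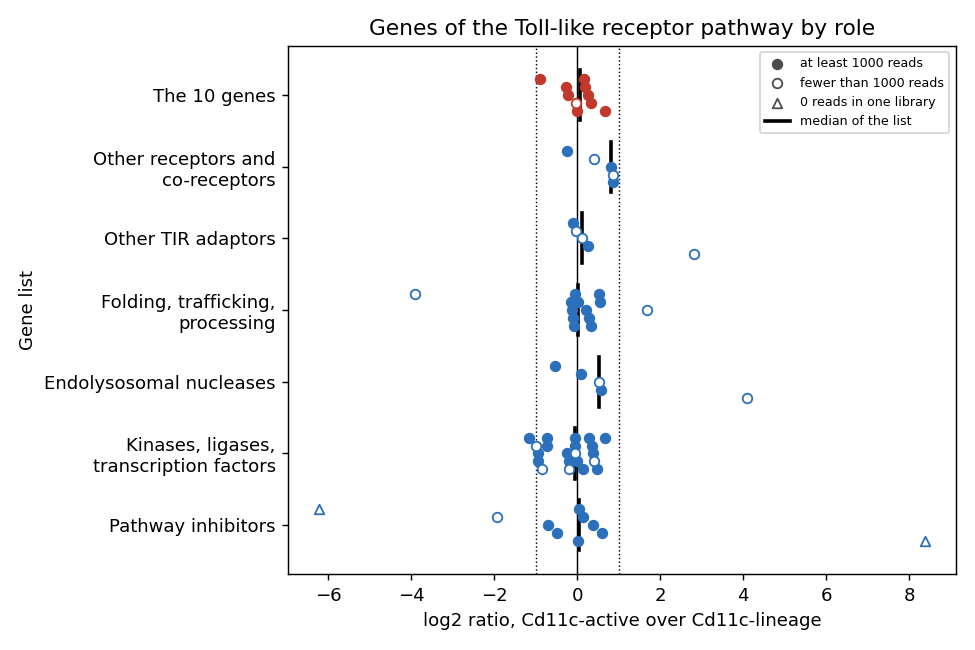
The log2 ratio of Cd11c-active over Cd11c-lineage (horizontal axis) is plotted for each gene with at least 20 reads in the 7 groups (vertical axis), with filled points for at least 1000 reads, open points for fewer, triangles for 0 reads in one library (where the value depends on the added 0.5 reads) and black bars for medians. Points beyond the dotted 2-fold lines are open or triangles, except *Irak4* at -1.16.

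Markers of other cells differed between the same libraries. All 8 endothelial markers were higher in Cd11c-active, with summed levels of 646 CPM against 73.7, and *Cldn5*, *Flt1*, *Tek*, *Esam* and *Plvap* were at 0 in Cd11c-lineage. The 6 pericyte markers summed to 64.0 and 8.90 CPM, and *Pdgfrb*, *Rgs5*, *Cspg4*, *Kcnj8* and *Abcc9* were at 0 in Cd11c-lineage. The sixth, *Anpep*, went the other way with 15 and 125 reads and made up the whole sum there. Of 5 border macrophage markers 4 were lower in Cd11c-active, with sums of 36.4 and 140 CPM and with *Cd163*, *Lyve1* and *F13a1* at 0 there. The 4 monocyte and neutrophil markers analysed summed to 2.83 and 17.0 CPM, with *S100a8*, *S100a9* and *Plac8* at 0 in Cd11c-active and *Ccr2* at 0 in Cd11c-lineage. The 9 retinal neuron markers summed to 107 and 198 CPM, with *Rbfox3* at 0 in Cd11c-lineage. Of the 8 with at least 20 reads, 5 were 2-fold lower in Cd11c-active (*Snap25*, *Syt1*, *Tubb3*, *Crx* and *Otx2*) and 1, *Rbpms*, was 2-fold higher, while *Prox1* gave 54.5 and 78.2 CPM of the sums. The 5 Muller glia and astrocyte markers, with *Rlbp1* at 0 in Cd11c-lineage, summed to 2434 and 2488 CPM, of which *Glul* gave 2249 and 2369. Of the rest, *Vim* (168 and 71.5 CPM), *Sox9* and *Rlbp1* were 2-fold higher in Cd11c-active and *Slc1a3* (5.91 and 45.7 CPM) was 2-fold lower. B cells and plasmacytoid dendritic cells are known for *Tlr9* and *Tlr7*. Of 5 B cell markers 2 were analysed, with sums of 15.9 and 13.2 CPM. They were *Cd79a* (55 reads and 1 read, 2-fold higher in Cd11c-active) and *Cd79b* (141 and 184 reads). The dendritic list was for dendritic cells in general and not for the plasmacytoid type alone. Of its 6 markers 2 were analysed, *Zbtb46* and *Siglech*, with sums of 189 and 252 CPM. *Siglech*, which microglia also express, made up 173 and 252 CPM of the sums. *Zbtb46*, with 200 and 0 reads, was at 0 in Cd11c-lineage, as were 5 of the endothelial markers. Which cell type gave the *Zbtb46* reads was not tested. Nor was the part of any of these other cells in the ratios of the 10 genes.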

How the data were processed

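Per the file headers, the authors deposited unnormalized read counts of each gene in 1 library per group. Their table also gives, per the file headers, the log2 fold change between the libraries and the log2 of the mean CPM. The fold change is relative to library totals, from the values, and neither of these columns enters a result. The submitters' processing notes name cutadapt 3.5, STAR 2.7.9a, featureCounts 1.6.3, edgeR 4.0.16 and the build GRCm39. The annotation, strand setting and duplicate handling are not given in the sources used here. No gene had fewer than 6 reads in sum. Columns of unmapped samples numbered 0.

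The members and gene lists were chosen with earlier results of these data known. Pathway genes were named as the 3 with the most reads in each list and those 2-fold apart with at least 1000 reads. Genes 2-fold apart with fewer reads were named because they were few, and *Ticam1*, *Tlr12*, *Cd36*, *Ly96*, *Hsp90b1*, *Cnpy3*, *Irak1*, *Tbk1*, *Ikbke* and *Irf7* were named after their values were seen.

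TMM factors were 0.954 for Cd11c-active and 1.05 for Cd11c-lineage (edgeR 4.0.16, R 4.3.3). Ratios used reads plus 0.5 over effective library size, for genes with 20 or more reads in the libraries combined, and 2-fold is a log2 ratio of 1. With 1 library per group the tests of edgeR and DESeq2 could not be fitted. Widened intervals used reads divided by the overdispersion of the gene's read range and rounded, and take the typical gene as unchanged. The counting intervals cover counting error only. They take each read as separate, although several reads can stem from the same molecule, and so may be too narrow. A count of 0 allows 3 reads, which is 0.243 CPM for the Cd11c-active library and 0.214 CPM for the other. Transcript lengths and GC content came from GENCODE for GRCm38 (99.6% of genes). Calculations used Python 3.11.15, numpy 2.4.6, scipy 1.17.1 and pandas 2.3.3, and matplotlib 3.10.9 for figures, and were tested on simulated data.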

Additional observations from a re-analysis of the deposited data

How the results depend on the processing

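With 1 library per group no replicate could be left out. No paired analysis was possible because each group has 1 library. All 7 other settings could be computed, but the summed reads have no value with the trend removed. Scaling to library totals lowered every log2 ratio by the same amount, so the median of all tested genes was -0.13 instead of 0.01, and the ratio of the summed reads of the 10 genes was -0.0040 (0.13 under TMM). One gene, *Tlr9*, was then 2-fold lower (1 instead of 0), and also after correction for transcript length and GC content (1). The lower pathway genes numbered 7 under library totals, with *Ikbke*, *Irak1* and *Tbk1* added, 6 with the trend removed, with *Irak1* and *Irf7* added, 5 under DESeq2 size factors and 5 with no minimum, and 2 with a minimum of 200 reads, where the higher ones numbered 0 (4 of each under TMM with 20 reads). The median of the 10 genes lay between -0.05 and 0.08. *Tlr2*, *Ly86* and *Myd88* stayed above 0 and *Tlr4*, *Tlr7* and *Tlr9* below it under all 7. *Tlr3* (0.11), *Tlr13* (0.08), *Cd14* (-0.10) and *Unc93b1* (-0.14) changed sign with the trend removed. Of 70 values of single genes under the alternatives, 11 left their counting interval. Depth limits *Tlr3* most, with a widened interval of -3.00 to 2.33.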

Other observations

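Other sensors of nucleic acids and microbes were measured in the same libraries, in 3 lists chosen for comparison after the 10 genes had been analysed. Of 8 cytosolic nucleic acid sensors and adaptors, 1 was 2-fold higher and 1 2-fold lower in Cd11c-active, with a median log2 ratio of -0.18, against 44.9% of all tested genes 2-fold or more apart. *Mavs*, the mitochondrial adaptor of RNA helicases, gave 492 reads in the Cd11c-active library and 226 in the Cd11c-lineage library (log2 ratio 1.31, counting interval 1.08 to 1.54, widened -0.72 to 3.99). *Sting1*, the adaptor for cytosolic DNA, had 835 and 624 reads (0.61), and its partner *Cgas*, the DNA sensor, had 381 and 406 (0.09). *Aim2*, a DNA sensor of the inflammasome, had 945 and 1700 reads (-0.66, counting interval -0.78 to -0.54). *Zbp1* had 9 and 122 reads. *Ifih1*, a helicase upstream of *Mavs*, had 257 and 396 reads (-0.44). The genes of cytosolic DNA sensing and those of RNA sensing thus lay on both sides of 0.

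The 9 genes of NOD-like receptors and the inflammasome had a median of 0.08. *Pycard*, the inflammasome adaptor, gave 720 reads in the Cd11c-active library and 121 in the Cd11c-lineage library (2.75, counting interval 2.48 to 3.05, widened 0.08 to 5.61). Of all genes with at least 200 reads 3.89% had a widened interval without 0. In this list 1 gene, *Pycard*, was 2-fold higher and 1, *Nod2*, 2-fold lower, while *Nlrp3* had 2886 and 3110 reads (0.08). *Nod2* had 0 and 79. Among 4 C-type lectin pathway genes, *Clec7a* had 1179 and 769 reads (0.80), *Syk* 4186 and 4524 (0.07) and *Card9* 460 and 1147 (-1.13), and *Clec4n*, with 28 and 108 reads, was also 2-fold lower. *Zbp1*, *Nod2* and *Clec4n* had fewer than 200 reads. Of all genes that reached 200 reads, 26.3% were 2-fold or more apart.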
